A study of Mus musculus with 20 samples.

Results

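The genes described here are 9 lymphatic vessel genes: Ccl21a, Ccl21c, LOC100041504, Mmrn1, Reln, Lyve1, Prox1, Flt4 and Pdpn. They were found by symbol in the probe annotation of an Illumina mouse bead array, as 9 of 19057 named genes, with 18 of 45281 probes. The members were chosen by gene name with the left-right differences of signal in the wild type on these arrays already known. Left-right values of members are therefore given as descriptions without a test. The RNA was total RNA from the left (LA) and right (RA) atrial appendages of CD1 mice aged 12 weeks, 5 of them heterozygous for the targeted allele (het) and 5 their wild-type littermates (wt). This gave 4 groups of 5 arrays: LA wt, LA het, RA wt and RA het. All groups shared strain and age. The labels describe neither how the allele was made nor the sex of the mice, and do not say which left and right arrays came from 1 mouse.

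Lymphatic vessels drain fluid and leukocytes from tissue, and in the heart they run mainly beneath the epicardium and into the muscle wall. Their endothelium is specified by the transcription factor Prox1 and grows in response to Vegfc acting on the receptor Flt4 (VEGFR-3). It makes the chemokine Ccl21, which guides dendritic cells and T cells carrying the receptor Ccr7 into the vessel. Several of its markers are shared with other cells: Lyve1, a hyaluronan receptor, is carried by tissue-resident macrophages, Pdpn (podoplanin, a membrane glycoprotein) by mesothelium, and Prox1 by heart muscle cells.

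The Ccl21 genes are near-identical copies on chromosome 4, and the array had 4 probes for them: 1 for Ccl21a, 2 for Ccl21c and 1 for LOC100041504. A promoter window in RefSeq's table for GRCm38.p6 could be matched for Ccl21a among these. To show how alike the copies are, the 250 bases before its start are set beside those of Ccl21d, another copy with such a window. The pair had 248 of 249 aligned bases in common, and the capital marks the single substitution, T142C, with positions counted from 1 at the 5′ end of the Ccl21a window.
Ccl21a, chr4:42773992-42774241, minus strand: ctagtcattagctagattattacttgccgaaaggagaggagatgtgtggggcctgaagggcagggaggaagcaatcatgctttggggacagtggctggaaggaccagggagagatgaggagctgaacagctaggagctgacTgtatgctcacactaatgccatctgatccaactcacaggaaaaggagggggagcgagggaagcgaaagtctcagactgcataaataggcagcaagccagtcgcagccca
Ccl21d, chr4:41903363-41903612, plus strand: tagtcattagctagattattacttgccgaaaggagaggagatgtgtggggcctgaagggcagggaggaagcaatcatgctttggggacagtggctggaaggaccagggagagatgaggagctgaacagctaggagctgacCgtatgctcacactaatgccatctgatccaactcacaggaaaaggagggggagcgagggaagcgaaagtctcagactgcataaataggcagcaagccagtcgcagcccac
The window of Mmrn1, a member detected on few right arrays, is printed because it held the sole match to the SOX motif ACAATG among 7 windows of 6 members, marked in capitals.
Mmrn1, chr6:60944067-60944316, plus strand: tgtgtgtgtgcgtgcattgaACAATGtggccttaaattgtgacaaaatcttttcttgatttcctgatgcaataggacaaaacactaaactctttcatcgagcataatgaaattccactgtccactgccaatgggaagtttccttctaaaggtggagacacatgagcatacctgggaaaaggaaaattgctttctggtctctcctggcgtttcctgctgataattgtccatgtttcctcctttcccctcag
ACAATG, searched on both strands, occurred in 10.7% of 32851 promoter windows of this length. The GATA motif AGATAA occurred in 9.99% of all windows and in 0 of the 7. The forkhead motif GTAAACA occurred in 3.17% of all windows and in 1 of the 7, that of Pdpn. These matches describe the letters of the windows only.

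The atrial identity of the samples was plain on every array: the atrial muscle genes Nppa, Sln, Myl7 and Myl4 gave signals of 27935.7 or more. Between 17316 and 19422 probes were detected per array (detection p under 0.05), and arrays correlated pairwise with r between 0.952 and 0.991. Signals of genes typical of neighbouring tissue varied between arrays, and whether such tissue gave these signals was not tested. Myl2, the ventricular myosin light chain, ranged from 6.9 to 106 in LA wt, 107.6 to 3999.7 in LA het, 698.2 to 29382.7 in RA wt and 402 to 33896.9 in RA het. The summed signal of 8 adipocyte genes ranged from 311.8 to 986.9 in LA wt, 536.6 to 11387.8 in LA het, 623.1 to 5255.1 in RA wt and 817.5 to 8513.7 in RA het. Of 9 genes of lymph node stroma and B cells, 5 (Glycam1, Madcam1, Cr2, Ms4a1 and Cxcr5) were detected on 0 arrays. Ccl19 was detected on all 20 (up to 72.4), Cd79b on 19 (up to 93.2), Tnfsf11 on 6 and Ltb on 3. The sum of the 9 stayed between 70.2 and 194.2. Of 11 genes of T cells and thymus, 5 (Cd4, Cd8a, Dntt, Foxn1 and Psmb11) were detected on 0 arrays, while Cd3d was detected on 12, Cd3g on 14 and Cd8b1 on all 20. The sum of the 11, most of it from Cd8b1 (1415.3 to 2665.2), stayed between 1480.8 and 2758.5.

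Of the 18 probes, 10 probes of 8 genes were detected on at least 5 arrays and entered the fits. The other 8 did not: all 3 of Flt4, 4 of 5 of Reln and 1 of 2 of Mmrn1, of which 7 were detected on 0 arrays. Flt4, the receptor that defines lymphatic growth, therefore had no usable level: 1 of its probes was detected on 1 LA wt array, at a signal of 23.9, and the rest on none. Values below are deposited signals, which had the background subtracted and can fall below 0. Differences are on the log2 scale after a further background and quantile step, with the standard error (SE) of the fit over 20 arrays.

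Ccl21a was high in every left appendage and low or absent in the right. Its signals in LA wt were 1219.6, 993, 1177.2, 659.8 and 1090.4. In LA het they were 440.9, 271.3, 864.6, 807.6 and 429.9. All 10 left arrays detected the gene. In RA wt the signals were 8.8, 217.2, 7.2, 93.2 and 18.5, with 3 of 5 arrays detected. In RA het they were 241.9, -2.5, 44.6, 180.6 and 26.1, with 4 of 5 detected. Every left array lay above every right array of the same genotype, and the lowest left value, 271.3 in LA het, also lay above the highest right value, 241.9 in RA het. The LA minus RA difference was 4.15 (SE 0.63) in wt, which is 17.8-fold, and 2.77 (SE 0.63) in het, 6.84-fold. With 2 of 5 RA wt arrays and 1 of 5 RA het arrays not detected, these sizes too depend on the background step: with a started log the differences were 3.44 and 2.25. By group mean the order was LA wt, LA het, RA het, RA wt. LA wt and LA het overlapped, and so did RA het and RA wt.

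The 3 other Ccl21 probes followed the same course. The first Ccl21c probe read 649, 574.4, 725.6, 436 and 712.2 in LA wt and 277.3, 242.8, 481.4, 393.1 and 316.5 in LA het. It read 17.5, 118.9, 4, 58.1 and 8.9 in RA wt and 141.7, 4.4, 37.7, 149.8 and 22.2 in RA het. Again no left array overlapped a right one, the lowest left value being 242.8 and the highest right value 149.8. The second Ccl21c probe ranged from 216.1 to 481.3 in LA wt, 161.5 to 289.9 in LA het, -9.6 to 61.7 in RA wt and -3.6 to 88.4 in RA het. LOC100041504 ranged from 377.4 to 637.7 in LA wt, 234.2 to 464.7 in LA het, -0.4 to 128.2 in RA wt and -1 to 159.7 in RA het. Both kept the sides apart in each genotype. The LA minus RA differences were 3.74 in wt and 2.38 in het for the first Ccl21c probe, 3.54 and 2.35 for the second, and 3.66 and 2.42 for LOC100041504. In RA wt each of the 3 was detected on 2 of 5 arrays. In RA het the first Ccl21c probe was detected on 4 of 5 arrays, the second on 2 and LOC100041504 on 3. Their sizes also depend on the background step: with a started log the second Ccl21c probe stood at 2.66 in wt. The 4 probes rose and fell together from array to array: over the 20 deviations from the group means their 6 pairwise correlations lay between 0.949 and 0.988. Signals of these probes cannot be assigned to single Ccl21 copies.

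Mmrn1 (multimerin-1, a secreted protein of lymphatic endothelium and platelets) was also detected on every left array and on few right ones. The LA wt signals were 109, 101.7, 86.8, 61.2 and 113.7, and those of LA het 45.1, 31.9, 67.1, 40.8 and 33.7. The RA wt signals were -3.4, 22.6, -8, 6.3 and -6.2, and those of RA het 2, -9.2, -2.3, 23.6 and 2.5, with 1 array detected in each. The right groups thus had 1 array each above background and both stayed below every left array. LA minus RA was 2.12 (SE 0.20) in wt and 1.21 (SE 0.20) in het. With 4 of 5 right arrays of each genotype not detected, these sizes depend on how background is treated: with a started log they were 1.38 and 0.76. The second Mmrn1 probe was detected on 0 arrays.

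Reln encodes reelin, a large secreted matrix glycoprotein that signals through the receptors Vldlr and Lrp8 and is made by lymphatic endothelium. The LA wt signals were 161.4, 220.2, 164.7, 141.3 and 178.6, and the LA het signals 134.2, 123.8, 188.3, 165.2 and 83.4. In RA wt they were 14, 63.1, 6.8, 42.6 and 31.6, and in RA het 68.7, 7.5, 31, 86.7 and 31.4. In wt the sides did not overlap, whereas in het the highest right array, 86.7, passed the lowest left array, 83.4. LA minus RA was 2.07 (SE 0.32) in wt and 1.45 (SE 0.32) in het. Reln was detected on 3 of 5 RA wt arrays and 4 of 5 RA het arrays, so these sizes too depend on the background step. With a started log the wt difference was 1.49, and the lowest het difference over the alternatives was 1.03.

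**Figure D1:**
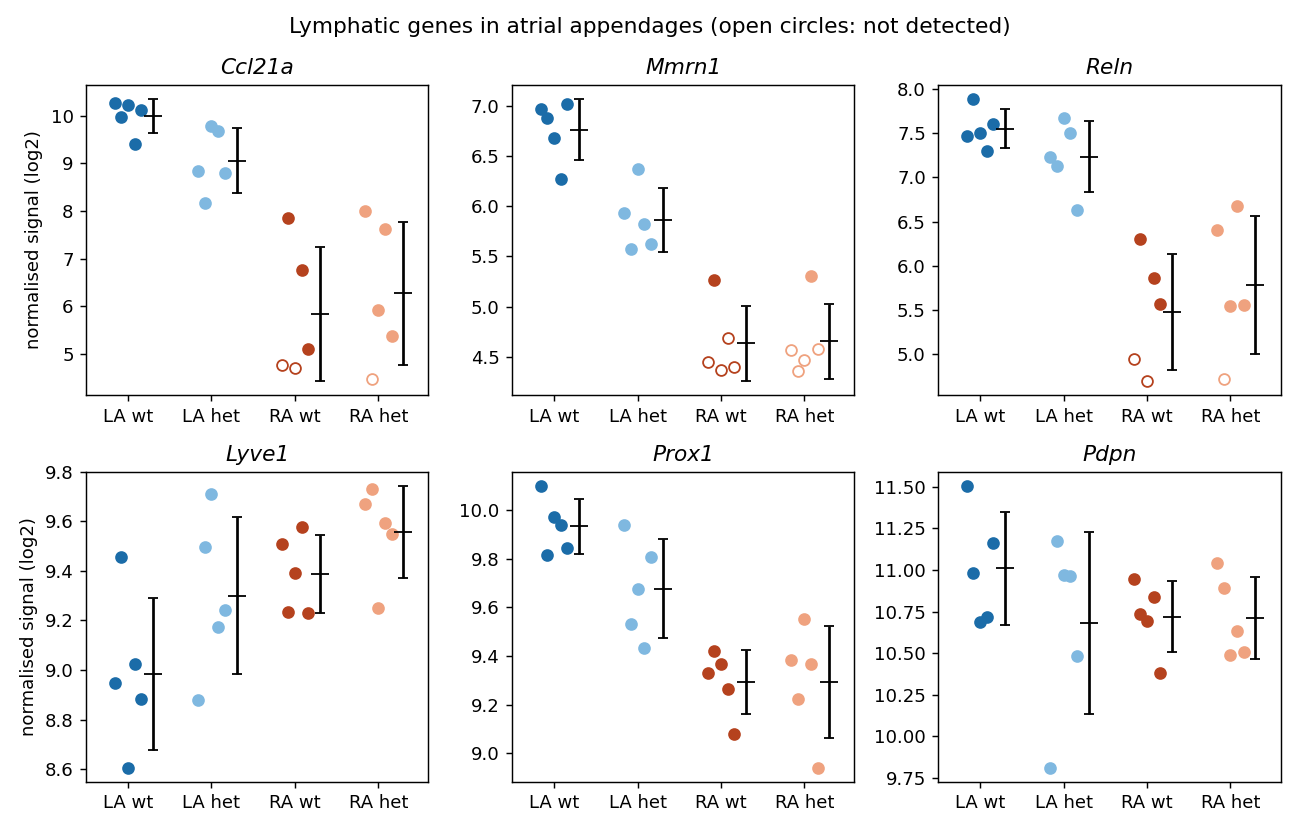
Normalised log2 signal (y axis) of 6 lymphatic genes in each of the 20 arrays, grouped along the x axis as LA wt, LA het, RA wt and RA het (5 arrays each); filled circles are detected and open circles not detected, and the bar beside each group is the mean ± SD. Ccl21a, Mmrn1 and Reln stand high in the left groups and spread down to background in the right ones, while Lyve1 and Pdpn overlap between sides; Prox1 is shown by the first of its probes.

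The other members with a level behaved differently. The first Prox1 probe read 1080.8, 884.8, 988.1, 965.6 and 902.2 in LA wt and 628.5, 668.9, 644, 598.3 and 525.4 in RA wt. It read 963.9, 723.6, 801.3, 674.4 and 879.7 in LA het and 651.4, 582.2, 734.8, 644 and 475.8 in RA het. Left exceeded right without overlap in wt and with overlap in het, by 0.64 (SE 0.12) and 0.38 (SE 0.12). The second Prox1 probe did not share this: its differences were -0.14 and 0.08 (SE 0.26 each), all its groups overlapped, and its levels correlated with those of the first probe at r = 0.08 over 20 arrays. A side difference of Prox1 therefore rests on 1 of 2 probes.

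Lyve1 pointed the other way. Its signals were 477.6, 685.8, 373.9, 504.6 and 456.3 in LA wt and 712, 585.9, 656.8, 748.7 and 585.2 in RA wt. In LA het they were 454.8, 707.1, 821.4, 561.7 and 589.4, and in RA het 798.9, 832.7, 592.5, 755.9 and 732.8. The sides overlapped in both genotypes, with LA minus RA at -0.41 (SE 0.16) in wt and -0.26 (SE 0.16) in het. Beside it, 8 of 11 tested macrophage genes were higher in RA wt than in LA wt and 1 was lower (limma, adjusted p), where 1.72% and 1.57% of all probes were so called. Cx3cr1, the fractalkine receptor, differed by -1.69 (adjusted p = 0.000114), the haemoglobin scavenger receptor Cd163 by -0.65 (adjusted p = 0.00106) and Timd4, a receptor of resident macrophages, by -0.99 (adjusted p = 0.00498). F13a1, the A chain of clotting factor XIII, was higher on the left by 0.82 (adjusted p = 0.0455). In het 1 of the 11, Cx3cr1, was higher on the right (-0.99, adjusted p = 0.0224), and F13a1 (1.04, adjusted p = 0.0116) and the mannose receptor Mrc1 (0.59, adjusted p = 0.00689) were higher on the left. The summed signal of the 11 genes was 4531.1 to 6040.7 in LA wt and 5462.6 to 7374.1 in RA wt, and 5841.3 to 7437.8 in LA het and 5610.6 to 7694 in RA het. The part of macrophages in the Lyve1 signal was not tested.

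Pdpn gave 2891.4, 2008.6, 1631, 1664.8 and 2272.8 in LA wt and 1958.6, 1688.5, 1643, 1813.8 and 1319 in RA wt. In LA het it gave 884, 2297.5, 1986.5, 1977.4 and 1414.9, and in RA het 2095, 1884.3, 1421.2, 1575.4 and 1438.1. The sides overlapped throughout, with differences of 0.29 in wt and -0.03 in het (SE 0.21 each). LA het replicate 1 was the lowest array for Pdpn, and it was also the lowest for the summed signal of 11 epicardial mesothelium genes, 2401.4 against 4898.7 to 7134.3 on the other LA het arrays. The part of mesothelium in the Pdpn signal was not tested.

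Counted by gene, 6 of 8 members were higher in the left without overlap in wt and 4 of 8 in het, beside 2.55% and 1.92% of all tested probes. Of these, 3 are the Ccl21 genes, whose probes cannot be told apart, so the het count rests on Ccl21 and Mmrn1. The wt count describes the comparison that drew attention to the members, and nothing is read from it. No member was higher in the right without overlap (background 2.37% in wt and 1.95% in het). The median difference of the 8 genes was 2.10 in wt and 1.33 in het, against 0.02 and -0.00 over 11154 named genes. The wt median too describes the comparison behind the list, and nothing is read from it. The 3 Ccl21 genes are counted separately, which weights both medians towards them. In bulk tissue, fewer lymphatic cells and less of these RNAs per cell cannot be told apart.

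**Figure D2:**
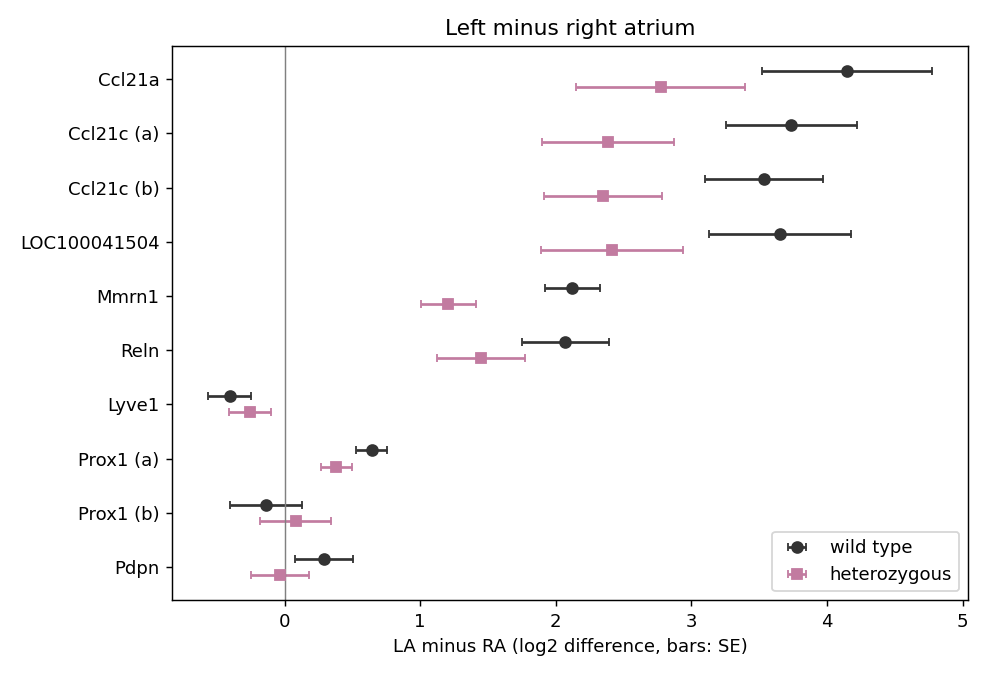
LA minus RA difference (x axis, log2) of the 10 tested member probes (y axis) in wild-type mice (black circles) and heterozygotes (pink squares), with bars of 1 SE; (a) and (b) are the first and second probe of a gene. The Ccl21 probes lie between 3.54 and 4.15 in wild type and between 2.35 and 2.77 in heterozygotes, and Lyve1 lies below 0 in both.

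The genes beside the members in these arrays did not all share their side difference. Of 5 other genes of lymphatic endothelium (Nts, Fgl2, Tbx1, Sox18 and Nr2f2), 0 were called in either direction in any contrast. Between sides, 1.57% (higher in LA) and 1.72% (lower) of all probes were called in wt, and 1.24% and 1.37% in het. With shares this small, 0 of 5 does not set these genes apart from others. Nts (10 arrays, up to 56) and Tbx1 (5 arrays, up to 26.6) were weakly detected. The summed signal of the 5 was 1905.3 to 2622.3 in LA wt and 2210.2 to 3479.5 in RA wt, and 1776.7 to 2703.6 in LA het and 2349.7 to 2478.2 in RA het. Its largest part came from Fgl2 (936.1 to 2492.6). Sox18, the factor that switches on Prox1 in the embryo, differed by -0.36 in wt (adjusted p = 0.302), and Nr2f2, a partner of Prox1, by 0.07 (limma, adjusted p = 0.929).

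Across 56 genes of lymphatic signalling and of the members' partners, 47 were tested. In wt, 3 were higher in LA and 2 lower, and in het 3 and 1, where 1.57% and 1.72% of all probes (wt) and 1.24% and 1.37% (het) were called. Those higher in LA include Has2 in both genotypes, a gene detected on left arrays only. Ackr2, the decoy receptor with which lymphatic endothelium scavenges inflammatory chemokines, was the 1 gene called of 7 Ccl21 and Ccl19 receptors and related chemokines. Its signal was 86.9 to 161.3 in LA wt and 42.8 to 65.1 in RA wt, and 117 to 184.7 in LA het and 39.3 to 85 in RA het. The sides did not overlap in either genotype, and LA was higher by 0.95 in wt (1.94-fold, limma adjusted p = 0.00252) and 1.18 in het (2.27-fold, adjusted p = 0.000467).

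The receptors that bind Ccl21 gave no such call. Ccr7, its signalling receptor, was detected on 6 arrays with signals from 2.3 to 24.7 on all 20, and differed by -0.03 in wt (adjusted p = 0.981). Ackr4, which scavenges Ccl21 and Ccl19, differed by 0.29 in wt (adjusted p = 0.512) and 0.48 in het (adjusted p = 0.143). Ccl19, the other Ccr7 ligand, was weak, between 21.1 and 72.4, with -0.47 in wt (adjusted p = 0.239). Cxcl12, a chemokine of stromal cells, stood at 0.72 in het (adjusted p = 0.0664).

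In growth signalling, Adm (adrenomedullin, a peptide that promotes lymphatic growth) was the strongest call and ran against Ccl21. It ranged from 33.2 to 65.2 in LA wt and 529.6 to 1198.7 in RA wt, a difference of -3.78 (adjusted p = 1.5e-07). In het it ranged from 41.2 to 167.6 on the left and 454.2 to 1200.8 on the right, a difference of -3.27 (adjusted p = 1.69e-06). Its receptor parts Calcrl and Ramp2 differed by -0.06 and -0.21 in wt (adjusted p = 0.983 and 0.598). Vegfc, the ligand of Flt4, differed by 0.14 in wt (adjusted p = 0.8), and its processing genes Ccbe1 and Adamts3 were detected on 0 arrays. Angpt1, a ligand of the Tie2 receptor, was higher in LA het by 0.82 (adjusted p = 0.0438) and stood at 0.42 in wt (adjusted p = 0.457).

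Among transcription factors and valve genes, Gja4 (connexin 37) was higher in LA wt by 0.77 (adjusted p = 0.0142), with 0.51 in het (adjusted p = 0.166). Ephb4, a receptor of veins and lymphatics, was lower in LA wt by 0.34 (log2 difference -0.34, adjusted p = 0.0229). Of the reelin receptors, Vldlr gave 6148.2 to 9900.3 and differed by -0.14 in wt (adjusted p = 0.792), and Lrp8 by -0.35 (adjusted p = 0.712). Of podoplanin's partners 0 of 5 tested were called, and its platelet receptor Clec1b was detected on 2 arrays. Has2, a synthase of the Lyve1 ligand hyaluronan, was detected on 4 of 5 arrays in LA wt and in LA het and on 0 right arrays. It passed the detection filter through the left arrays alone. The measured differences were 0.71 in wt and 0.60 in het, and no test is read from them. Against the lowest detectable signal on the right, Has2 was at least 1.24-fold (wt) and 1.09-fold (het) higher on the left.

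The comparison of genotypes sets heterozygotes against wild type within each side. In the left appendage the Ccl21 signals of the heterozygotes were lower on average, but no member passed the test. Of 8 members 0 were called, beside 0.00498% of all probes (1 of 20097), and 7 of 8 differences were negative with a median of -0.54, against -0.00 over all named genes. These values use the LA wt arrays that also entered the left-right comparison behind the list, so they are not independent of how the list was made. The Ccl21 genes, whose probes cannot be told apart, are counted separately among the 8, which weights the signs and the median towards them. Unadjusted p was under 0.05 for 2 of the 8. Other cell types' markers moved in the same contrast, with 0 called: the median was -0.51 over 10 tested mesothelium genes, 1.43 over 5 adipocyte genes and 1.39 over 4 smooth muscle genes, and Myl2 stood at 2.49 (adjusted p = 1). The lung gene Scgb1a1, detected on wt arrays only, stood at -2.70. The part of all these genes in the members' values was not tested.

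Mmrn1 had the smallest p of them. Its LA het signals (31.9 to 67.1) overlapped those of LA wt (61.2 to 113.7) through 1 array of each group, and the difference was -0.90 (95% interval -1.32 to -0.47, limma adjusted p = 0.456). Ccl21a differed by -0.94 (SE 0.63, 95% interval -2.25 to 0.36, adjusted p = 1), where LA het replicates 3 and 4, at 864.6 and 807.6, lay within the range of LA wt and the other het arrays below it. The Ccl21c probes differed by -0.84 and -0.75 and LOC100041504 by -0.76 (adjusted p = 1 for each). Reln differed by -0.32 and Pdpn by -0.33 (adjusted p = 1 for each). Prox1 differed by -0.26 on its first probe (limma adjusted p = 1) and -0.09 on its second. Lyve1 alone was positive, at 0.32 (95% interval -0.01 to 0.64, adjusted p = 1).

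In the right appendage 0 of 8 members were called either, beside 0.00995% of all probes, and 7 of 8 differences were positive with a median of 0.24. These signs depended on the fit: with array weights Ccl21a stood at -0.36, and Ccl21c, LOC100041504, Mmrn1 and Reln were also below 0. The Ccl21 genes are again counted separately among the 8, and the first Prox1 probe differed by only 0.001. Ccl21a differed by 0.43 (95% interval -0.87 to 1.74, adjusted p = 0.898) and Reln by 0.30 (adjusted p = 0.855). Mmrn1, near background in both groups, differed by 0.02 (95% interval -0.41 to 0.45). Intervals of this width do not show that the genotypes were alike. Of the 47 pathway genes, 0 were called for genotype on either side.

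**Figure D3:**
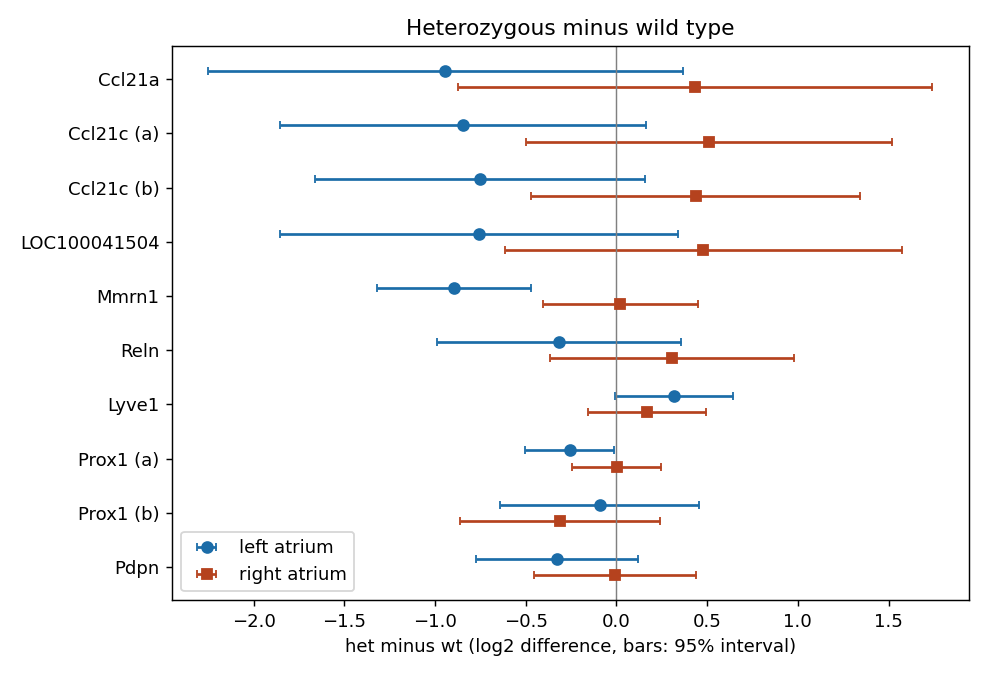
Het minus wt difference (x axis, log2) of the 10 tested member probes (y axis) in the left (blue circles) and right atrium (red squares), with 95% intervals; (a) and (b) are the first and second probe of a gene. On the left the interval of Mmrn1, -1.32 to -0.47, and that of the first Prox1 probe exclude 0 before adjustment; 0 of the members passed after it.

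Set side by side, the left-right difference was smaller in heterozygotes for every Ccl21 probe, Mmrn1 and Reln, by values that were not tested because wt left-right differences chose the members, and that use right groups partly not detected. The change was -1.38 (SE 0.89) for Ccl21a, -0.92 (SE 0.29) for Mmrn1 and -0.62 (SE 0.46) for Reln. It was 0.15 (SE 0.22) for Lyve1 and -0.32 (SE 0.30) for Pdpn.

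Within the right appendage, Ccl21a, Reln and Myl2 went up and down together from array to array. The highest Ccl21a signals were those of RA het replicates 1 and 4 (241.9 and 180.6) and RA wt replicates 2 and 4 (217.2 and 93.2). The same arrays had the highest Myl2, 11228.1 and 33896.9 in RA het and 29382.7 and 5897.4 in RA wt, and the highest Reln. The remaining right arrays had Myl2 between 402 and 3187.5. Relations were computed as deviations from the genotype mean over the 10 arrays of a side, with exact permutation within genotype, for 7 genes on 2 sides, 14 relations in all; they were chosen after the values were seen.

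On the right, Ccl21a and Reln gave Pearson's r = 0.94 and Spearman's rho = 0.93 (exact permutation, two-sided, p = 0.000417 and 0.00118, adjusted p = 0.00486 and 0.00826). Ccl21a and Myl2 gave r = 0.95 and rho = 0.92 (exact permutation, p = 0.000694 for both, adjusted p = 0.00486 and 0.00826). Without the 2 arrays farthest from the median of Ccl21a, r was 0.94 and 0.95. Mmrn1 gave r = 0.78 and rho = 0.82 (exact permutation, p = 0.00729 and 0.0112, adjusted p = 0.034 and 0.0523), and this passed in 3 of 11 alternatives. The adipocyte hormone Adipoq gave r = 0.75 and rho = 0.70 (exact permutation, p = 0.0242 and 0.044, adjusted p = 0.0678 and 0.123). Lyve1 (r = -0.05), Prox1 (r = 0.39) and Pdpn (r = 0.22) did not pass (exact permutation, adjusted p = 0.956, 0.54 and 0.798). Arrays without detected Ccl21a have no order among themselves, which leaves 7 right arrays with a measured level.

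On the left the relation to Myl2 did not pass: r was -0.54 and rho -0.28 (exact permutation, adjusted p = 0.494 and 0.769). Mmrn1 gave r = 0.75 and rho = 0.73 on the left (exact permutation, adjusted p = 0.0678 and 0.0752) and Reln r = 0.62 and rho = 0.70 (exact permutation, adjusted p = 0.273 and 0.144). Of the 2 ventricular markers the second, Irx4, was detected on 1 of 20 arrays. Without the 4 arrays with Myl2 over 5000 (2 of RA wt and 2 of RA het) the Ccl21a difference between sides was 5.13 in wt and 3.80 in het; these are the right arrays with the highest Ccl21a, so leaving them out could not but raise it. With Myl2, Adipoq and the mesothelial gene Upk3b as covariates it was 6.08 in wt and 3.67 in het. In wt, Myl2 did not overlap between sides (LA 6.9 to 106, RA 698.2 to 29382.7), and on the right it rose with Ccl21a. The covariate fit therefore cannot separate Myl2 from side. Without the 4 arrays with the brown fat gene Ucp1 over 100 (3 of LA het and 1 of RA het) the Ccl21a difference was 3.44 in het. That left 2 LA het arrays and took out RA het replicate 1, the right array with the highest Ccl21a (241.9). Whether neighbouring tissue contributed to Ccl21a in the right arrays was not tested.

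**Figure D4:**
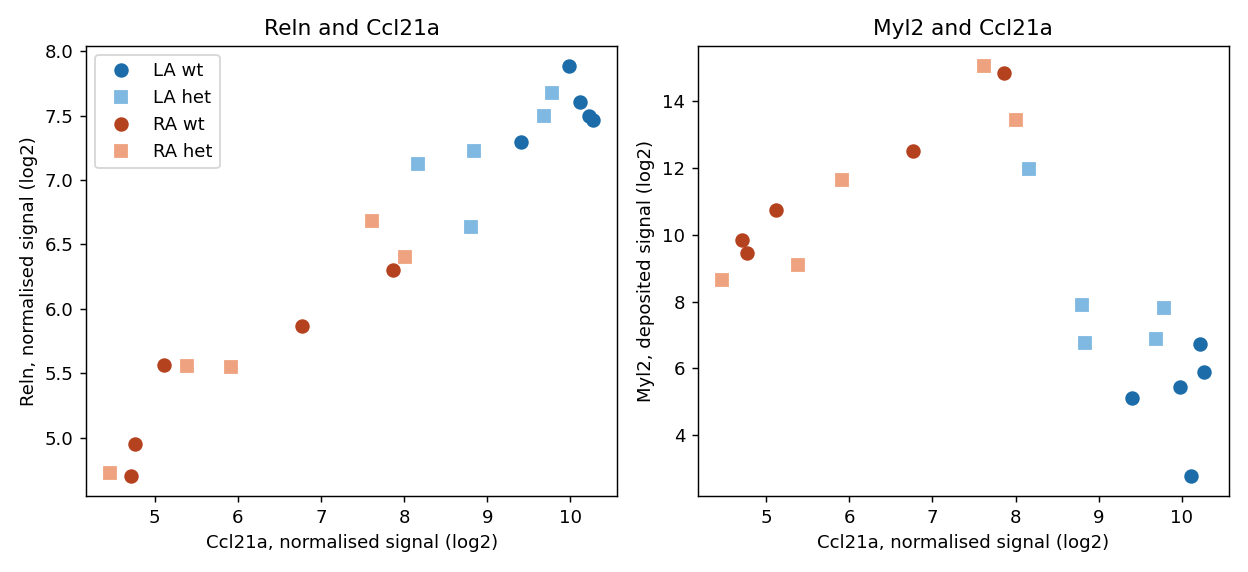
Each point is 1 of the 20 arrays, with the normalised log2 signal of Ccl21a on the x axis and, on the y axis, the normalised log2 signal of Reln (left panel) or the log2 of the deposited Myl2 signal (right panel); circles are wild type and squares heterozygous, blue left and red right. Reln is high where Ccl21a is high across the 20 arrays (r = 0.94 over the right arrays and 0.62 over the left, as deviations from the genotype mean), whereas Myl2 rises with Ccl21a among the right arrays (r = 0.95 over 10 arrays as deviations from the genotype mean) and the 5 LA wt arrays lie at the bottom for Myl2.

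Over all 20 arrays as deviations from the group means, and as a description, Ccl21a correlated with Reln at r = 0.89 and with Mmrn1 at r = 0.73. It correlated with Lyve1 at -0.02, with Pdpn at 0.16 and with Prox1 at 0.25. Lyve1 and Pdpn correlated with each other at 0.59.

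The genes most like Ccl21 were ranked by Pearson's r with the mean log2 level of the 4 Ccl21 probes over 20 arrays, a measure that includes the difference between sides. They were Slco2b1, an organic anion transporter (r = 0.96), the ferritin receptor Scara5 (0.95), the complement protease Masp1 (0.94), the cation exchanger Slc24a2 (0.93) and Vtn, vitronectin (0.93). Slco2b1 ranged from 585.4 to 782.9 in LA wt and 537.1 to 729.2 in LA het, and from 124.9 to 326 in RA wt and 100.8 to 324.4 in RA het. Scara5 ranged from 529.4 to 667 in LA wt and 573.6 to 824.1 in LA het, and from 56.2 to 243.1 in RA wt and 25.8 to 178.4 in RA het. In both the left arrays lay above all right arrays. Ranked instead by deviations from the group means, Scara5 (0.88) and Slco2b1 (0.87) came first again, followed by Tesc (0.85), Fbp2 (0.83) and Nrde2 (0.80). The wider spread of the Ccl21 probes on the right again gives right arrays most weight in this ranking. Tesc had its highest signals on the right, but its sides overlapped. It ranged from 114.7 to 152 in LA wt (median 128.8) and 63.4 to 485 in RA wt (median 132). In het it ranged from 65.1 to 184.7 on the left (median 84) and 82.6 to 656.8 on the right (median 155.1).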

How the data were processed

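Total RNA (RNeasy kit, quality checked on a Bioanalyser) was labelled as biotin cRNA with the TotalPrep kit, per the labels' protocols, and hybridised to 20 Illumina bead arrays, 1 per sample, grouped by the samples' titles. The deposited table holds a signal intensity and a detection value per probe. The deposited intensities had already had background subtracted and been made equal in distribution: 33.7 to 33.9% of values per array lay below 0 and sorted values of any 2 arrays differed by 1.8 at most. The deposited detection column holds 1 minus the detection p-value. How this was done is unstated in these sources, and a second deposited table held the same intensities. As designed, neqc (limma 3.58.1, R 4.3.3; offset 16, quantile, log2) was applied on top, a second correction; uncorrected alternatives are given at the end. The 20097 probes kept were those with a detection p below 0.05 in 5 or more of the arrays. lmFit with 4 group means over all arrays and eBayes gave differences, with Benjamini-Hochberg adjustment per contrast over all kept probes and a threshold of 0.05. The scripts were tested on simulated data.

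Of 45281 probes, 34885 had 1 gene symbol in the platform annotation, 18 several and 10378 none; genes are named from it, and a gene of a list is stood for by its kept probe with the highest mean. Members, pathway lists, markers and tests were chosen with earlier results of these data known. Every member probe is reported; of each pathway list up to 4 called genes with the smallest p and up to 2 others, plus some named for their role. All 9 members were found in RefSeq's gene table and 6 had promoter windows. With 5 mice per genotype and 5 arrays per group, left and right arrays would share mice, but the labels do not say which. The main tests between sides ignored any such pairing. The labels also do not say that arrays of a group come from separate mice, so p-values measure the spread between arrays. No 2 arrays were duplicates. The targeted gene is not reported here. The number of arrays limits the precision. Alternatives covered normalization, filter, array weights, replicate blocks, left-out arrays and covariates.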

Additional observations from a re-analysis of the deposited data

Results flagged for a closer look

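Among 40 sets of 5 arrays, made of 10 member probes in 4 groups, 1 array stood apart from the rest of its group by Dixon's criterion, which chance meets in about 1 of 20 sets. The criterion was applied to normalised log2 levels, where Mmrn1 stood at 5.30 in RA het replicate 4 and at 4.36 to 4.58 on the others of that group. The deposited signals were 23.6 and -9.2 to 2.5. These values lie near background, so the flag depends on the background step. The same array had the highest Myl2 signal of all, 33896.9.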

How the results depend on the processing

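Of 8 members, 0 were called for genotype on either side under each of 34 settings, and the signs of the left-right differences of Ccl21a, Ccl21c, LOC100041504, Mmrn1, Reln, Lyve1 and the first Prox1 probe held in all. Over the alternatives the left genotype difference of Mmrn1 lay between -1.23 and -0.62 (adjusted p 0.0813 to 1) and that of Ccl21a between -2.05 and -0.71. Probes called for genotype in the left (1) became 2 with a floor of 16 in place of a further correction, 5 with array weights, and 0 with a started log, no filter, the replicate block, the covariates or without the Ucp1 arrays, and 0 to 3 with 1 array left out. Probes called between sides in wt (660) became 1001 with array weights, 351 with covariates and 494 to 777 with 1 array left out. In het (524) they became 322 with the compared arrays alone, 250 without the Ucp1 arrays, 207 with covariates and 356 to 551 with 1 left out. Over all alternatives the het count lay between 207 and 777. Pathway genes called in het (4) became 2 with the floor of 16 and without the Ucp1 arrays, 2 to 5 with 1 left out, and 2 to 6 over all alternatives. Several right genotype differences changed sign. With array weights they were -0.36 for Ccl21a, -0.061 and -0.11 for Ccl21c, -0.10 for LOC100041504, -0.087 for Mmrn1 and -0.10 for Reln. With a started log Mmrn1 was -0.0049. Prox1 was -0.021 without the Ucp1 arrays and -0.020 without the Myl2 arrays, and with covariates Mmrn1 was -0.057, Prox1 -0.049 and Pdpn 0.11. With 1 array left out, Mmrn1 lay between -0.14 and 0.18, Prox1 between -0.064 and 0.089 and Pdpn between -0.091 and 0.051, and the second Prox1 probe on the left between -0.25 and 0.14. The cause of these changes was not tested. Correlations with Ccl21a lay between -0.37 and 0.23 for Lyve1, -0.47 and 0.23 for Prox1 and -0.64 and 0.17 for Myl2 on the left. On the right they lay between -0.20 and 0.18 for Lyve1 and -0.071 and 0.45 for Pdpn. The relation of Ccl21a and Mmrn1 on the right lost its call in 8 settings (adjusted p up to 0.205), that on the left gained one in 1 (adjusted p = 0.0438), that of Ccl21a and Adipoq on the right gained one in 2 (adjusted p = 0.0405 and 0.0195), and those of Ccl21a with Reln and with Myl2 kept theirs in all 11. Same-numbered left and right arrays had deviations correlated from -0.42 to 0.35 over 10 pairs, best with their own number in 2. This cannot show whether equal numbers mark 1 mouse, because other differences between arrays could outweigh what a mouse shares. With the replicate block 0 members were called, the Mmrn1 difference on the left kept -0.90 (adjusted p = 0.621), and the random block used a correlation of 0.045. Leaving out the 4 arrays with Myl2 over 5000, and the settings of the correlations, were chosen after seeing the data. Signals near background limit Mmrn1, Reln and the Ccl21 probes on the right.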

Other observations

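Of 12 genes of blood endothelium, 2 were higher in the right appendage than in the left in both genotypes and 0 higher in the left. Vwf (von Willebrand factor) differed, LA minus RA, by -0.87 in wt (limma adjusted p = 0.000107) and -0.54 in het (adjusted p = 0.0133), and Eng, the endothelial co-receptor endoglin, by -0.59 (adjusted p = 0.00193) and -0.56 (adjusted p = 0.00432). Pecam1 and Cdh5, markers of all endothelium, differed by 0.10 and -0.08 in wt (adjusted p = 0.893 and 0.93). The summed signal of the 12 genes was 18285.2 to 24583 in LA wt and 23380.2 to 29363.9 in RA wt.

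The lung epithelial gene Scgb1a1 was detected on 5 arrays, all of wild-type mice, with signals of up to 954.1, while Sftpc, Sftpb, Sftpa1 and Sftpd were detected on 0. The summed signal of the 5 genes reached 965.7 in LA wt and 756.4 in RA wt, against 8.2 in LA het and 27.8 in RA het. Whether lung tissue gave these signals was not tested.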
